A study of Mus musculus with 56 samples.

Results

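The genes described here are 43 interferon-stimulated genes, taken by symbol from a written list of known type I and type II interferon targets and matched by Ensembl identifier to a table of 55359 genes. All 43 were found, and all 43 were among the 19657 genes that passed the filter on low counts and were tested. The RNA came from OVA:Kb-specific CD8+ T cells, called TFGS (fetus/graft-specific T cells) in the study, which recognise a peptide of ovalbumin on the class I molecule Kb through a tetramer and were taken from spleen and pooled lymph nodes of adult C57BL/6 females. The study asked how pregnancy changes naive and memory T cells that share a paternal or graft antigen. Naive mice (3 samples) received no graft and were not mated, and Sensitized mice (4 samples) had rejected a skin graft from 2W-OVA.BALB/c donors, a strain with constitutive expression of the model antigen 2W-OVA. N+P mice had a first semi-allogeneic pregnancy by 2W-OVA.BALB/c males, and their cells were sorted post-partum into the PD1- subset C1 (3 samples) and the PD1+CD73+ subset C5 (3 samples). S+P mice were grafted first and then mated with the same kind of male, and their cells were sorted into PD1- C4 (6 samples), PD1+CD73+ C5 (6 samples) and PD1+CD73- C7 (5 samples). In the paper, S+P mice were mated from the time after grafting at which Sensitized mice were sampled, and their cells were taken post-partum. Between S+P and Sensitized, time since the graft therefore cannot be told apart from pregnancy. The labels of Naive and Sensitized samples name no gate. The gates mean that the C5 and C7 cells were picked for PD1, so a difference between subsets of 1 mouse is a difference between gates.

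Interferons act through surface receptors and JAK kinases on STAT transcription factors. Type I interferon brings a complex that holds STAT2 and IRF9 to interferon-stimulated response elements (ISRE), and interferon-gamma acts through gamma-activated sites (GAS). The genes that respond encode sensors of foreign nucleic acid, effectors that block virus growth, GTPases that attack intracellular microbes, and regulators that feed back on the pathway. CD8 T cells respond to interferon during priming, keep a basal level of many of these transcripts, and can carry them for long periods in chronic infection. The score and counts over all members come first, then the called member, then the others by role. In bulk samples, fewer cells that carry a transcript and less of it per cell cannot be told apart.

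Each sample was a bulk library of 200 sorted live cells, made by SmartSeq2, which copies and amplifies full-length mRNA, usually as 2 technical libraries that were summed here. Library totals ran from 6636532 to 32625243 counts. The first technical library of Naive mouse 1 and that of S+P C4 mouse 1 held identical counts and were left out of both, and a near-identical pair from S+P C7 mice 1 and 2 was averaged and used as 1 sample. Values below are CPM, counts scaled to the library total after correction by the trimmed mean of M-values (TMM). The 7 CD8 T cell markers (*Cd3d*, *Cd3e*, *Cd3g*, *Cd8a*, *Cd8b1*, *Trac*, *Lck*) summed to between 5397 and 9327 CPM in every sample, and *Cd4* reached at most 3.71 CPM. 3 samples had under 9000 genes detected, S+P C4 mouse 2 (8002 genes), S+P C4 mouse 3 (7436 genes) and S+P C7 mouse 3 (7879 genes). S+P C7 mouse 3 also held 8233 CPM of the 5 B cell markers, 8891 CPM of the 5 dendritic cell and MHC class II markers and 19860 CPM of the 4 erythroid markers, against medians over all samples of 286, 32.6 and 0.797 CPM. Values without them are given beside many of the results below. Cells were prepared from individual mice, so the spread below is between mice, except that gates of 1 mouse share that mouse.

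Regulatory sequence was available for 31 of the 43 members, as RefSeq windows (assembly GRCm38.p6) from 250 bases before to 50 bases after the start of transcription. The core of the interferon-stimulated response element, GAAANNGAAA on either strand, was present in the windows of 17 of these 31 members (54.8%), against 3.99% of 27025 gene symbols. The gamma-activated site TTCNNNGAA, which reads the same on both strands, was present in 8 of the 31 (25.8%), against 9.55% of symbols. The response element core occurred in 5 of 6 sensor and HIN-200 genes with a window, 4 of 7 IFIT and OAS genes, 4 of 7 other antiviral genes, 3 of 4 GTPases, 1 of 4 signal transducers and IRF factors, and 0 of 3 feedback regulators with a window. *Dhx58*, *Zbp1*, *Ifi204*, *Oas2*, *Mx1*, *Rtp4*, *Ifi27*, *Ifi27l2a*, *Usp18*, *Parp9*, *Parp14* and *Ly6a* were not analysed for sequence. A match of letters is a description of the window and does not show a bound site.

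The stretches below lie upstream of the start, are written 5′ to 3′ on the strand of the gene, and carry the GAAANNGAAA matches of either strand in capitals. The first 3 are shown because these HIN-200 paralogs hold the same element and *Ifi208* differed more than the other 2 in S+P C5 against Sensitized, and the last 2 because *Ifit1* and *Isg15* are standard readouts of type I interferon with repeated elements. Positions are exact matches to GRCm39. *Ifi208* is at chr1:173501148-173501207 (plus strand), *Ifi213* at chr1:173426877-173426936 (minus strand), *Ifi206* at chr1:173318890-173318949 (minus strand), *Ifit1* at chr19:34618160-34618238 (plus strand) and *Isg15* at chr4:156285307-156285378 (minus strand).
Ifi208: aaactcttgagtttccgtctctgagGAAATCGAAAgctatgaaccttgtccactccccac
Ifi213: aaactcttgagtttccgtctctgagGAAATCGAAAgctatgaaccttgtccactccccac
Ifi206: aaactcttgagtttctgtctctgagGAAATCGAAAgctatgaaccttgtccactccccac
Ifit1: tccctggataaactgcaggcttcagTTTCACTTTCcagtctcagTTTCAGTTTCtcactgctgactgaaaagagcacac
Isg15: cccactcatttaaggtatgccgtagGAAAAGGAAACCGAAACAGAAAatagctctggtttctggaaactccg
Over these 60 bases *Ifi208* and *Ifi213* differed at 0 positions and *Ifi206* differed from each at 1 position, whereas the matching 60 bases of *Ifi203* differed from all of them at 26. *Ifit1* held 2 matches and *Isg15* held 3 that overlap each other.

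Most members were transcribed in all groups. 15 of the 43 had more than 3 counts in each of the 30 samples, and 31 of the 43 in each of the 27 samples outside those with under 9000 genes. Per kilobase of exon, the mean level over all samples was highest for *Ifi27l2a* (398 CPM per kb), a small mitochondrial and membrane protein of the ISG12 family, followed by the GTPase *Ifi47* (143 CPM per kb), the HIN-200 genes *Ifi209* (81.3) and *Ifi206* (66.6), and *Ly6a* (46.2), the surface antigen Sca-1. The order differed in Sensitized, where *Ifi47* stood at 204 and *Ifi27l2a* at 168 CPM per kb, whereas *Ifi27l2a* was first in the other 6 groups. The lowest over all samples were *Ifi204* (0.738 CPM per kb), *Ifi44* (1.10), *Oasl2* and *Oasl1* (1.65 and 1.62) and *Oas2* (1.84). The ubiquitin-like modifier *Isg15* stood at 3.56 CPM per kb and at no more than 8.42 CPM in any sample. The most abundant members in CPM also included *Ifi203* and *Samhd1*, a nucleotide phosphohydrolase that restricts retroviruses. *Ifi203* had group means between 251 and 381 CPM, *Ifi209* between 221 and 346 CPM, and *Samhd1* between 215 and 362 CPM, and none of the 3 had an unadjusted p under 0.05 in any comparison.

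A score, the mean of log2(CPM + 1) over the 43 members, placed Sensitized TFGS highest. The 4 Sensitized samples lay between 5.86 and 6.12, with a mean of 6.01 ± 0.11 (SD, n = 4). Naive TFGS had a mean of 5.55 ± 0.28 (SD, n = 3), N+P C1 5.51 ± 0.28 (SD, n = 3), N+P C5 5.52 ± 0.26 (SD, n = 3) and S+P C5 5.57 ± 0.41 (SD, n = 6). The highest Naive sample (5.87) and the highest S+P C5 sample (6.13) lay within or above the range of the Sensitized samples. S+P C4 had a median of 5.57, with 4 of its 6 samples between 5.57 and 5.62 and mice 2 and 3 at 4.14 and 2.79. S+P C7 had a median of 5.54, with mouse 3 at 3.36 and the others between 5.41 and 5.95. These 3 low samples were those with few genes detected, and they held 28, 20 and 29 of the 43 members above 3 counts, against 36 to 43 in all other samples. Without them the means were 5.60 ± 0.03 (SD, n = 4) in S+P C4 and 5.66 ± 0.24 (SD, n = 4) in S+P C7, and S+P C4 then lay below all 4 Sensitized samples while S+P C7 overlapped with them. The score has no test, since its members were chosen with results of these data known. Technical libraries of 1 sample differed by a median of 0.15 over 23 pairs, and libraries of different mice in a group by a median of 0.41 over 171 pairs.

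**Figure D1:**
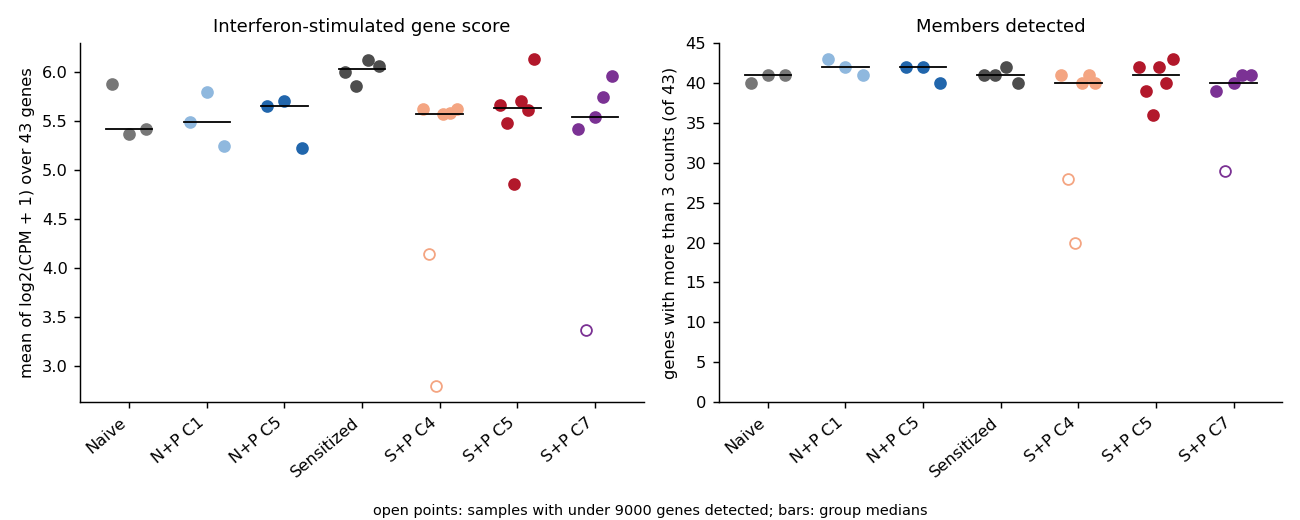
Interferon-stimulated gene score (left, mean of log2(CPM + 1) over 43 genes) and number of members with more than 3 counts (right) in each sample of the 7 groups, with bars at group medians and open points for the 3 samples with under 9000 genes detected. The 4 Sensitized samples sit between 5.86 and 6.12, and the 3 open points fall to between 2.79 and 4.14.

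**Figure D2:**
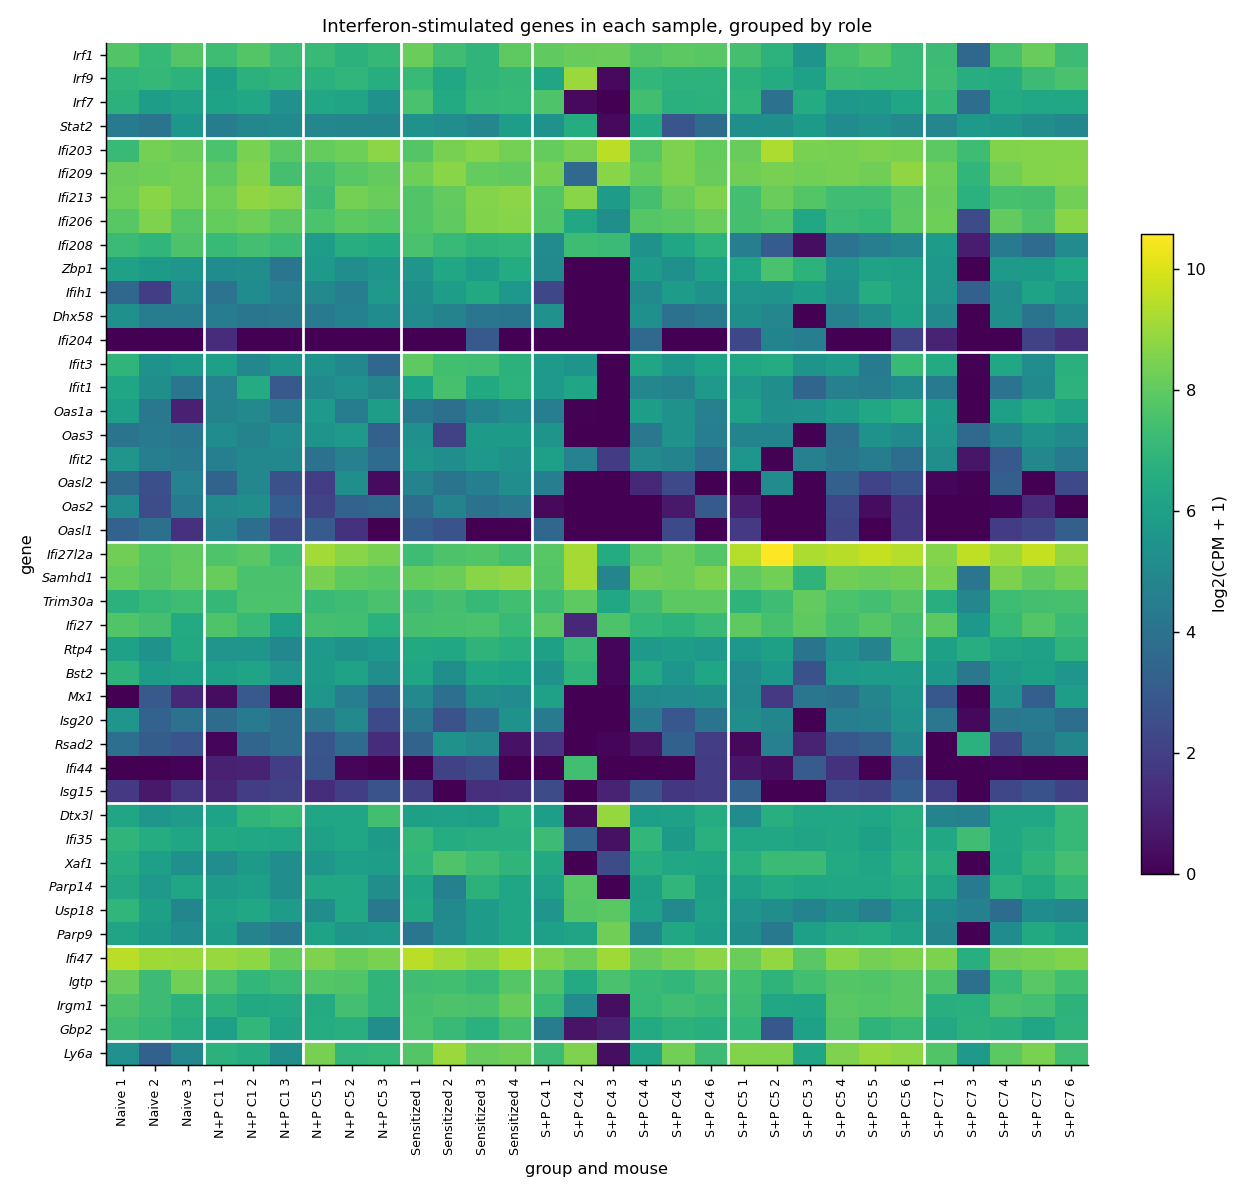
Log2(CPM + 1) of the 43 members (rows, grouped by role and sorted by mean CPM within a role) in the 30 samples (columns, by group and mouse). Dark cells are at or near 0, and they fill much of the columns of S+P C4 mice 2 and 3 and S+P C7 mouse 3 and the rows of *Ifi204* and *Ifi44*, whereas *Ifi27l2a* is brightest in S+P C5 and S+P C7.

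Few members passed the thresholds in any comparison. The test was the quasi-likelihood test of edgeR, and a gene was called where its p, adjusted over all 19657 genes by Benjamini and Hochberg, was under 0.1 and its log2 fold change was beyond 0.9 in either direction. Between Sensitized and Naive TFGS, 0 of 43 members were called (0.153% of all genes tested were), and 1 member had an unadjusted p under 0.05 (7.82% of all genes did). Between N+P C1 and Naive, 0 members were called (0.0% of all genes) and 0 had an unadjusted p under 0.05 (3.23% of all genes). Between N+P C5 and Naive, 0 were called (0.0407% of all genes) and 2 had an unadjusted p under 0.05 (5.33%). DESeq2 called 2, 1 and 1 members in these 3 comparisons, namely *Ly6a* for Sensitized and N+P C5, and *Ifi204*, which was at 0 in Naive and at or under 3 counts in most other samples, for Sensitized and N+P C1. Of all 33255 genes it tested, DESeq2 called 1102, 753 and 1015.

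S+P cells of each gate were compared with Sensitized TFGS, which differ in pregnancy and in time since the graft. In S+P C4, 0 of 43 members were called (0.00509% of all genes) and 3 had an unadjusted p under 0.05, all lower (12.7% of all genes, in either direction). In S+P C5, 1 member was called, higher (0.0712% of all genes), and 4 had an unadjusted p under 0.05, 1 higher and 3 lower (13.0% of all genes). In S+P C7, 0 were called (0.0305% of all genes) and 5 had an unadjusted p under 0.05, 1 higher and 4 lower (10.2% of all genes). DESeq2 called 0, 2 and 4 members, and 990, 1059 and 806 of all 33255 genes it tested. As shares of the 43, the members with an unadjusted p under 0.05 came to 6.98%, 9.30% and 11.6%, near or below the share of all genes. These 3 comparisons use the same 4 Sensitized samples. Without the 3 samples with few genes detected, edgeR called 0 members for C4, 3 for C5 (*Ifi27l2a*, *Ifi206* and *Ifi208*) and 1 for C7 (*Ifi27l2a*), and it called *Ly6a* for both Sensitized and N+P C5 against Naive. Of the 19553 genes tested in that fit, 4, 199 and 69 were called against Sensitized, and 153 and 120 against Naive.

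Between gates of the same mice, N+P C5 against N+P C1 gave 0 members called (0.00509% of all genes) and 1 with an unadjusted p under 0.05 (4.31% of all genes). S+P C5 against S+P C4 gave 1 called, higher (0.0305% of all genes), and 3 with an unadjusted p under 0.05 (13.3%). S+P C7 against S+P C4 gave 0 called (0.00509%) and 5 with an unadjusted p under 0.05 (15.9%), and S+P C7 against S+P C5 gave 0 called (0.0%) and 1 with an unadjusted p under 0.05 (12.7%). S+P C5 against N+P C5, the same gate in mice with and without a prior graft, gave 0 called (0.0%) and 3 with an unadjusted p under 0.05 (5.88%). In the test of whether pregnancy changed sensitized and naive mice by different amounts in C5, 0 members were called (0.0254% of all genes) and 2 had an unadjusted p under 0.05 (6.42%). DESeq2 called 1, 3, 4, 1, 1 and 0 members in these 6 comparisons. Of all 33255 genes it called 825, 1014, 1000, 606, 734 and 825.

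The members' median log2 fold change was 0.22 in Sensitized against Naive, where that of all genes was 0.04, and 28 of 43 were higher. Against Naive it was -0.17 for the C1 and -0.25 for the C5 gate of N+P mice, where all genes stood at 0.00 in both. For the gates of S+P mice against Sensitized TFGS it was -0.36 (C4), -0.33 (C5) and -0.40 (C7), with 30, 25 and 35 of 43 members lower, and all genes had medians of -0.14, -0.01 and 0.00. Without the 3 samples with few genes detected, the 3 medians against Sensitized were -0.19, -0.31 and -0.20. Between gates of S+P mice the members' medians were -0.04 (S+P C5 against S+P C4), -0.04 (S+P C7 against S+P C4) and -0.23 (S+P C7 against S+P C5), and all genes had 0.11, 0.23 and 0.02. Some single genes below are described as not overlapping between groups. Against Naive this held for 6 (Sensitized), 4 (N+P C1) and 6 (N+P C5) members, and for 1492, 1435 and 2532 of 19657 genes. Against Sensitized it held for 4, 5 and 6 members (C4, C5, C7) and 157, 566 and 422 genes. For S+P C5 it was 2 members and 135 genes against S+P C4, and 5 and 525 against N+P C5. N+P C5 against N+P C1 had 5 members and 2117 genes.

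**Figure D3:**
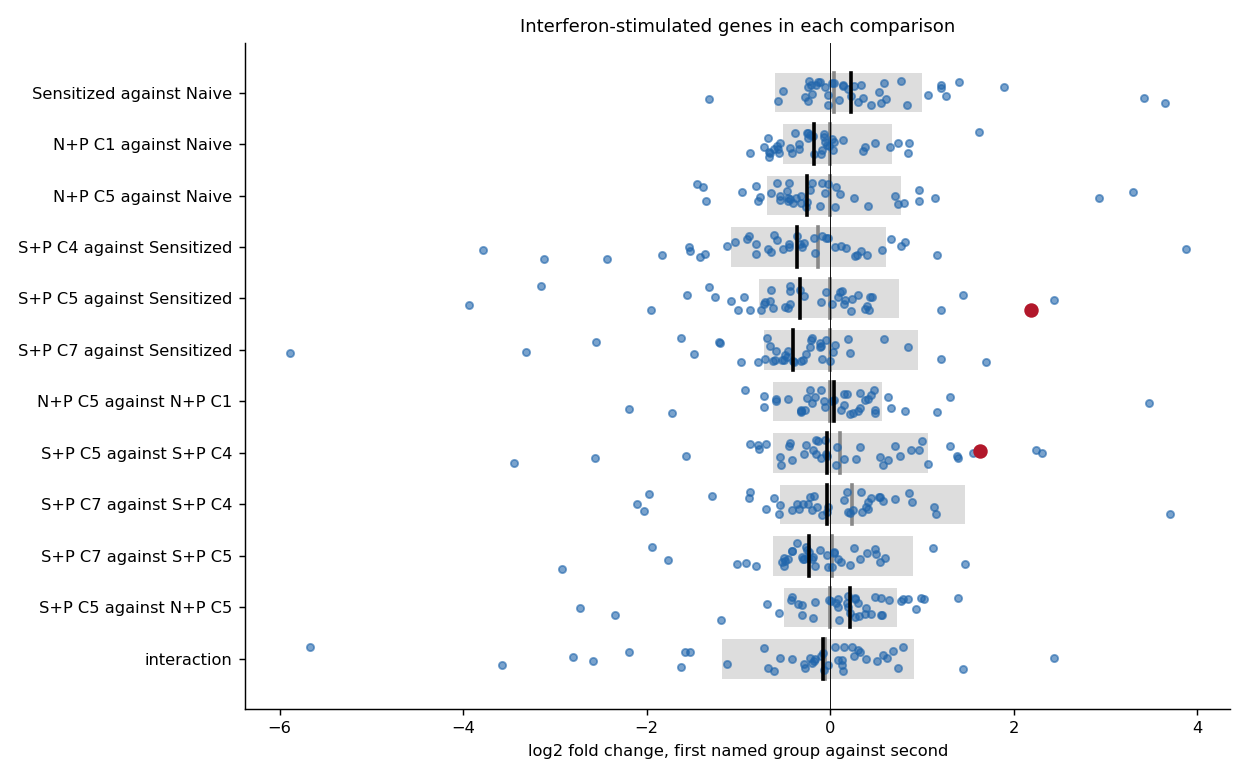
Log2 fold change of each member (points) in the 12 comparisons, first named group against second, with black bars at the members' median, grey boxes from the lower to the upper quartile of all 19657 genes and grey bars at their median; members at or under 3 counts in every sample of a group are not drawn. Large red points are the 2 calls, both *Ifi27l2a* (2.19 and 1.63), and the black bars run from -0.40 to 0.22.

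*Ifi27l2a* was the only member called by edgeR's test on all samples, with S+P C5 higher than both Sensitized and S+P C4. The gene (ENSMUSG00000079017) lies on chromosome 12 from 103399975 to 103409950 on the minus strand of GRCm39. The 4 Sensitized samples had 155, 195, 208 and 169.9 CPM. S+P C5 samples ran from 613 to 1530.3 CPM with a median of 687, and every one lay above every Sensitized sample. The mean was 182 ± 24.0 CPM (SD, n = 4) in Sensitized and 832 ± 347 CPM (SD, n = 6) in S+P C5. *Ifi27l2a* rose in S+P C5 with a log2 fold change of 2.19 (SE 0.37, adjusted p = 0.0118, edgeR's quasi-likelihood test).

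*Ifi27l2a* was highest in the PD1+ gates. S+P C7 samples held 394, 758, 526, 802 and 466 CPM, again all above the Sensitized samples, with a log2 fold change of 1.69 that missed the threshold (SE 0.37, adjusted p = 0.228). It was past the threshold without S+P C7 mouse 3 and the 2 other samples with few genes (1.59, adjusted p = 0.00337). S+P C4 samples ran from 89.6 to 563 CPM with a median of 229, and 4 of the 6 lay between 214 and 287 CPM. N+P C5 samples held 553, 418 and 338 CPM, against 307, 220.4 and 256 CPM in Naive and 201, 231 and 154 CPM in N+P C1. The 3 N+P C5 samples did not overlap with either, with log2 fold changes of 0.74 against Naive (SE 0.44, adjusted p = 0.774) and 1.16 against N+P C1 (SE 0.44, adjusted p = 0.919). In order of group means *Ifi27l2a* was lowest in Sensitized (182), then N+P C1 (195), Naive (261), S+P C4 (269), N+P C5 (436), S+P C7 (589) and S+P C5 (832), and each pair of neighbours in this order overlapped.

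Within S+P mice *Ifi27l2a* was higher in C5 than in C4 of the same mouse in 6 of 6 mice and higher in C7 than in C4 in 5 of 5, and it was higher in C5 than in C1 in 3 of 3 N+P mice. The S+P C7 sample counted as mouse 1 includes the averaged library of mice 1 and 2, here and in the same-mouse counts below. *Ifi27l2a* rose in S+P C5 against S+P C4 with a log2 fold change of 1.63 (SE 0.32, adjusted p = 0.0603, edgeR). When the mouse was added as a blocking factor and no other groups were fitted, the log2 fold change was 1.75 and the adjusted p = 0.119, so that the call was lost. A fit of these groups alone without the block lost the call too. The call was also lost on leaving out any 1 of S+P C4 mice 1, 4 and 6 or S+P C5 mice 2, 4, 5 and 6, with log2 fold changes between 1.36 and 1.97 over all samples left out in turn. S+P C7 against S+P C4 had a log2 fold change of 1.13 (SE 0.32, adjusted p = 0.244). S+P C5 lay above N+P C5 without overlap, with a log2 fold change of 0.93 (SE 0.39, adjusted p = 0.83), and the change with pregnancy in C5 was larger in sensitized than in naive mice by 1.45 on the log2 scale (SE 0.56, adjusted p = 0.649), which did not pass the test.

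*Ifi27l2a* shares 163 of its 1085 exon bases with *Ifi27*, its neighbour on the opposite strand, and SmartSeq2 libraries do not mark strand, so reads from the shared bases cannot be told apart. *Ifi27*, from the same ISG12 family, had 173, 178, 187 and 139.9 CPM in Sensitized and between 176 and 249.9 CPM in S+P C5. The groups overlapped, with a log2 fold change of 0.30 (SE 0.60, adjusted p = 1). When both genes were summed, a step chosen after seeing the data, the sum rose in S+P C5 against Sensitized by 1.57 on the log2 scale (adjusted p = 0.0131) and against S+P C4 by 1.37 (adjusted p = 0.0127). S+P C5 mouse 2, with 1530.3 CPM, stood apart from the other S+P C5 samples, and the call against Sensitized was kept on leaving out any 1 sample, with log2 fold changes between 1.94 and 2.27. It was lost when no filter on low counts was applied (adjusted p = 0.19).

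**Figure D4:**
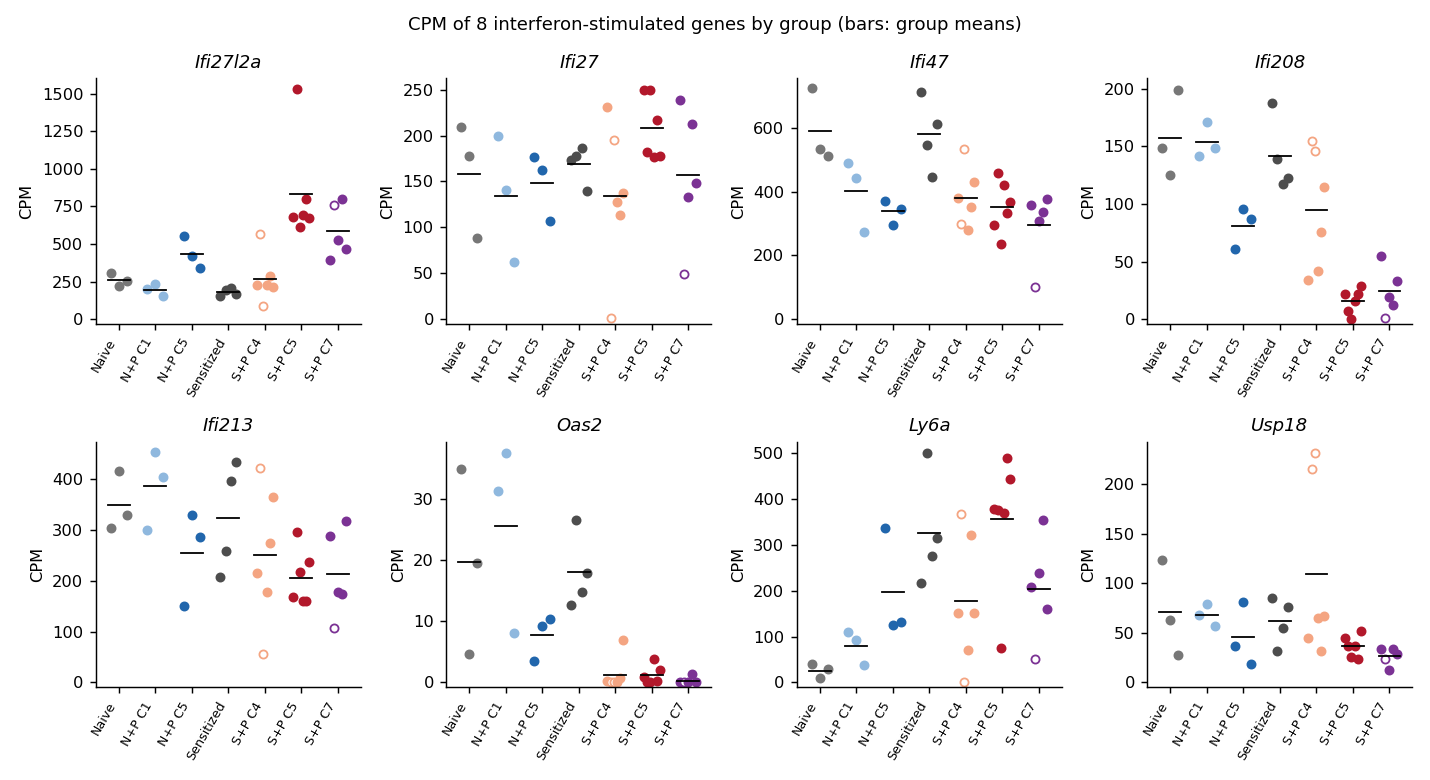
CPM of 8 interferon-stimulated genes (*Ifi27l2a*, *Ifi27*, *Ifi47*, *Ifi208*, *Ifi213*, *Oas2*, *Ly6a*, *Usp18*) in each sample of the 7 groups, with bars at group means and open points for samples with under 9000 genes detected. *Ifi27l2a* is highest in S+P C5 (mean 832 CPM against 182 in Sensitized), *Ifi208* is lowest there (15.9 against 142), and *Ly6a* is lowest in Naive (26.0 CPM).

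Among the 9 sensors and HIN-200 proteins, *Ifi208* had the smallest p in S+P C5 against Sensitized. The HIN-200 (PYHIN) family comprises nuclear proteins, several of which bind DNA. *Ifi208* (ENSMUSG00000066677) lies on chromosome 1 from 173501241 to 173525961 on the plus strand of GRCm39. The Sensitized samples had 187, 139, 118 and 123 CPM, and the S+P C5 samples ran from 0.297 to 28.7 CPM with a median of 18.5. Every S+P C5 sample lay below every Sensitized sample, with a log2 fold change of -3.15 (SE 0.75) that did not pass the threshold (adjusted p = 0.187, edgeR). It passed without the 3 samples with few genes detected (-3.13, adjusted p = 0.00513), none of which is in either group, and with DESeq2 (adjusted p = 0.000942).

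*Ifi208* was low in both PD1+ gates of S+P mice. S+P C7 samples held 55.1, 0.747, 19.4, 11.9 and 33.2 CPM, all below the Sensitized samples, with a log2 fold change of -2.56 (SE 0.79, adjusted p = 0.473). S+P C4 samples ran from 33.6 to 155 CPM, all above every S+P C5 sample, and S+P C5 against S+P C4 gave -2.57 (SE 0.70, adjusted p = 0.297). *Ifi208* was lower in C5 than in C4 in 6 of 6 S+P mice, lower in C7 than in C4 in 4 of 5, and lower in C5 than in C1 in 3 of 3 N+P mice, where C5 held 60.5, 95.8 and 86.9 CPM and C1 held 142, 172 and 148 CPM. S+P C5 lay below N+P C5 without overlap, with a log2 fold change of -2.35 (SE 0.78, adjusted p = 0.809). None of these differences passed the threshold in edgeR's test on all samples. DESeq2 called *Ifi208* in S+P C7 against Sensitized (adjusted p = 0.0378) and, against S+P C4, in S+P C5 (adjusted p = 0.00422) and S+P C7 (adjusted p = 0.0966). In these 3 comparisons the log2 fold changes of *Ifi208* without the 3 samples with few genes detected were -2.24, -2.08 and -1.19, and edgeR called none.

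The paralogs that share the upstream stretch of *Ifi208* differed less. *Ifi213*, whose 60 bases shown above are identical, had 206, 259, 396 and 432 CPM in Sensitized and between 159.7 and 295 CPM in S+P C5, which overlapped, with a log2 fold change of -0.65 (SE 0.39, adjusted p = 0.573). *Ifi206* had 211, 257, 375 and 398 CPM in Sensitized and between 78.3 and 241 CPM in S+P C5, which overlapped, with a log2 fold change of -0.94 (SE 0.57, adjusted p = 0.59). These genes are closely related and lie within 1 cluster on chromosome 1, and how the counting divided reads among them was not tested. Of the 9 genes of this role, 6 were higher and 3 lower in S+P C5 against Sensitized, with a median of 0.16. *Ifi204* was at 0 CPM in all Naive and N+P C5 samples, and S+P C5 samples held 3.86, 26.2, 22.3, 0, 0 and 3.21 CPM. Taking N+P C5 at its floor of 3 counts per library, the S+P C5 mean was at least 114-fold higher, with an adjusted p of 0.83, and 2 of the 6 S+P C5 samples were at or under the floor themselves.

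**Figure D5:**
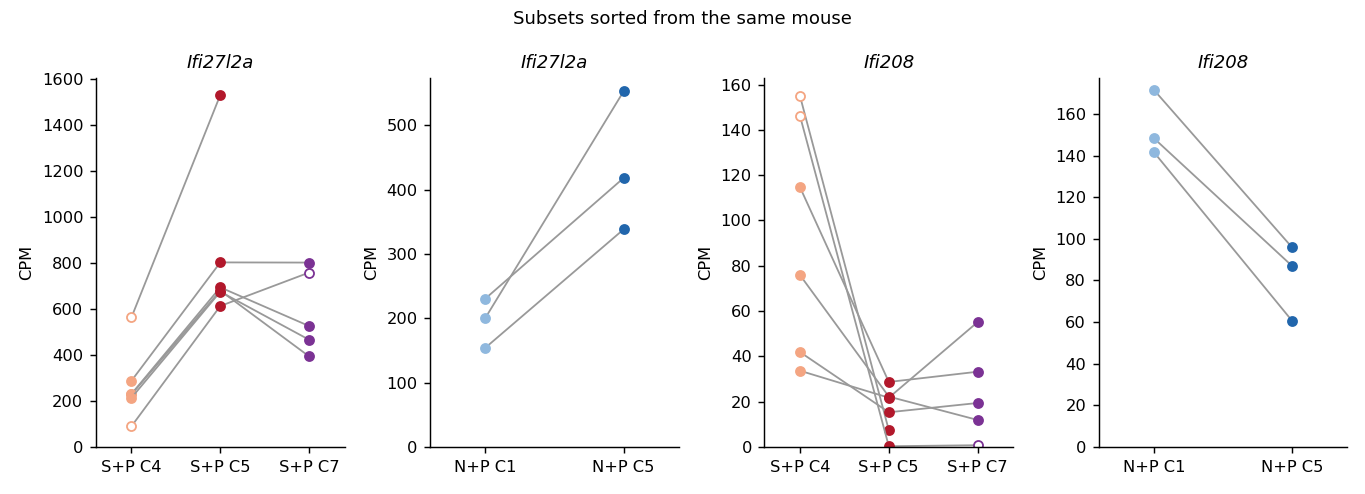
CPM in subsets sorted from the same mouse, joined by lines, for *Ifi27l2a* and *Ifi208* in S+P mice (C4, C5, C7) and N+P mice (C1, C5), with open points for samples with under 9000 genes detected. *Ifi27l2a* is higher in C5 than in C4 in 6 of 6 mice, and *Ifi208* is lower in 6 of 6. The S+P C7 point of mouse 1 includes the averaged library of mice 1 and 2.

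Most of the interferon-inducible GTPases were lower in cells of post-partum mice than in cells of unmated mice. All 4 (*Ifi47*, *Irgm1*, *Igtp*, *Gbp2*), which act on vacuoles that hold microbes, were lower than in Naive in both gates of N+P mice (medians of -0.62 and -0.62) and lower than in Sensitized in C4 and C7 of S+P mice (medians of -0.82 and -0.64), and 3 of 4 were lower in S+P C5 (median -0.40). Without the 3 samples with few genes detected, 4 of 4 were lower in C4 (median -0.58) and 3 of 4 in C7 (median -0.62). edgeR called none of the 4 in any comparison. *Ifi47* (ENSMUSG00000078920) lies on chromosome 11 from 48967412 to 48987813. Naive samples had 725, 534 and 513 CPM and N+P C5 samples 372, 297 and 346 CPM, which did not overlap, with a log2 fold change of -0.81 (SE 0.38, adjusted p = 0.765). Sensitized samples had 715, 547, 446 and 614 CPM.

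*Ifi47* was lower than in Sensitized in each gate of S+P mice. S+P C4 ran from 279 to 536 CPM, S+P C5 from 237 to 461 CPM, and S+P C7 held 358, 99.5, 308, 338 and 378 CPM, so that S+P C7 alone did not overlap with Sensitized. The log2 fold changes were -0.61 (SE 0.30, adjusted p = 0.386), -0.72 (SE 0.30, adjusted p = 0.289) and -0.97 (SE 0.31, adjusted p = 0.473). The log2 fold change in S+P C7 was -0.74 without the 3 samples with few genes detected (adjusted p = 0.208). DESeq2 called *Ifi47* in S+P C7. The 3 comparisons share the Sensitized samples, so their common direction is not independent.

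The 8 IFIT and OAS genes, which bind viral RNA or make the 2-5A messenger that activates RNase L, were mostly lower in S+P than in Sensitized TFGS. 5 of 8 were higher in Sensitized than in Naive (median 0.70), and 7 of 8 were lower than in Sensitized in each gate of S+P mice (C4, C5, C7, with medians of -1.17, -1.29 and -1.34, against -0.14, -0.01 and 0.00 for all genes). Without the 3 samples with few genes detected, the counts were 6, 7 and 6 of 8, with medians of -0.88, -1.26 and -1.02. edgeR's test on all samples called none of the 8. The gene that was not lower was *Oas1a*, named here after its values were seen. It averaged 23.5 CPM in Sensitized and 24.4, 64.4 and 54.5 CPM in S+P C4, C5 and C7. *Oas2* (ENSMUSG00000032690), on chromosome 5 from 120868398 to 120887933, had 12.7, 26.5, 14.7 and 17.9 CPM in Sensitized. The S+P mice held 0.206, 0, 0, 0, 0.644 and 6.89 CPM in C4, 0.863, 0, 0, 3.85, 0.280 and 1.97 CPM in C5, and 0, 0, 0.0651, 1.42 and 0 CPM in C7. All 17 S+P samples lay below every Sensitized sample, and 9 of them were at or under 3 counts. In 11 of 23 pairs of technical libraries only 1 library of the pair had *Oas2* above 3 counts. For *Oasl1* and *Oasl2* this held in 10 and 9 of 23 pairs.

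The log2 fold changes of *Oas2* against Sensitized were -3.78 (SE 1.74, adjusted p = 0.363) for C4, -3.94 (SE 1.75, adjusted p = 0.321) for C5 and -5.89 (SE 2.05, adjusted p = 0.473) for C7. Leaving out S+P C4 mouse 6 moved the first to -6.62 and leaving out S+P C7 mouse 5 moved the last to -9.80. None passed the threshold in edgeR's test on all samples, and DESeq2 called the last. *Ifit1* had 69.2, 181, 85.5 and 113 CPM in Sensitized and between 9.79 and 51.0 CPM in S+P C5, with no overlap and a log2 fold change of -1.95 (SE 1.07, adjusted p = 0.482), and it was called when only these groups were fitted. *Ifit3* had 244, 168, 160.1 and 110.4 CPM in Sensitized and between 0 and 74.8 CPM in S+P C4, with no overlap and a log2 fold change of -1.83 (SE 0.95, adjusted p = 0.439). *Ifit1* and *Ifit3* are named here after their values were seen.

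Of the 11 other antiviral effectors, *Rsad2* (viperin), *Ifi44* and *Mx1* were detected unevenly. *Rsad2* had 9.18, 42.8, 30.9 and 0.441 CPM in Sensitized and 2.14, 0, 0.0993, 0.581, 8.74 and 2.74 CPM in S+P C4, which overlapped (log2 fold change -3.12, SE 1.52, adjusted p = 0.39, and -2.51 without S+P C4 mice 2 and 3 and S+P C7 mouse 3). In S+P C7 it had 0, 108, 3.90, 16.1 and 28.4 CPM, of which the 108 CPM was in mouse 3, the sample with few genes and high B cell and erythroid markers. S+P C7 against S+P C4 had a log2 fold change of 3.71 (SE 1.51, adjusted p = 0.244), and of 1.72 without the 3 samples with few genes detected (adjusted p = 0.864).

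*Ifi44* was above 3 counts in 14 of the 30 samples. It was at or under 3 counts in all Naive and all S+P C7 samples, and in S+P C4 it reached 166 CPM in mouse 2 and at most 2.72 CPM in the other 5. Taking S+P C7 at its floor, *Ifi44* was at least 307-fold lower than the S+P C4 mean (adjusted p = 0.244, and 0.483 without the 3 samples with few genes detected), a mean set by mouse 2, and at least 28.2-fold lower than the S+P C5 mean (adjusted p = 0.278). *Mx1*, named here after its values were seen, had 0, 6.69 and 1.28 CPM in Naive and 30.2, 13.8, 36.8 and 33.1 CPM in Sensitized, with no overlap and a log2 fold change of 3.42 (SE 2.02, unadjusted p = 0.101 in edgeR's test). In N+P C5 it had 47.9, 21.9 and 8.75 CPM.

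*Ly6a*, the surface antigen Sca-1, which T cells raise on activation and on exposure to interferon, was low in Naive cells. The gene (ENSMUSG00000075602) lies on chromosome 15 from 74863840 to 74869880. Naive samples had 40.1, 8.85 and 29.0 CPM, against 216, 500.1, 276 and 315 CPM in Sensitized, 109, 93.4 and 38.1 CPM in N+P C1 and 337, 125 and 133 CPM in N+P C5. Sensitized and N+P C5 lay above Naive without overlap, whereas 1 N+P C1 sample lay within the Naive range. The log2 fold changes were 3.65 for Sensitized (SE 1.02, adjusted p = 0.359) and 2.93 for N+P C5 (SE 1.02, adjusted p = 0.765), and neither passed the threshold in the test on all samples.

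Both differences of *Ly6a* passed without the 3 samples with few genes detected (adjusted p = 0.00126 and 0.0161) and with DESeq2 (adjusted p = 0.00358 and 0.0678). S+P C5 samples of *Ly6a* ran from 76.0 to 491 CPM with a median of 378, and overlapped with Sensitized. The change with pregnancy in C5, sensitized minus naive mice, was -2.81 on the log2 scale (SE 1.22, adjusted p = 0.688), which did not pass the test.

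No regulator of the pathway among the members was called by edgeR's test on all samples. *Usp18*, which removes ISG15 from proteins and damps the type I receptor, had a range of 31.2 to 232 CPM in S+P C4, where the highest values, 215 and 232 CPM, were those of mice 2 and 3. It held 23.4 to 52.1 CPM in S+P C5 and 12.4 to 34.2 CPM in S+P C7. The log2 fold changes against S+P C4 were -1.57 (SE 0.55, adjusted p = 0.297) and -2.03 (SE 0.59, adjusted p = 0.244), and *Usp18* was lower in C5 than in C4 in 6 of 6 mice and lower in C7 than in C4 in 4 of 5. DESeq2 called *Usp18* in both, and edgeR called it in S+P C7 when technical libraries were kept separate. Without the 3 samples with few genes detected, the log2 fold changes of *Usp18* were -0.51 and -0.96 (adjusted p = 0.679 and 0.464). Of the 4 signal transducers and IRF factors, *Stat2*, *Irf9*, *Irf7* and *Irf1*, which carry or amplify the interferon signal, 3 were higher in Sensitized than in Naive (median 0.37) and 4 were lower in S+P C5 than in Sensitized (median -0.30), and none was called in any comparison. The 6 genes of the ADP-ribosylation, ubiquitin and feedback role had a median of 0.09 for Sensitized against Naive, and one of -0.18 for S+P C5 against Sensitized.

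The pathway above the members was examined with 4 further lists. Of the 8 listed interferon genes, 2 passed the low-count filter, *Ifng* and *Ifnk*. *Ifng*, the gene of interferon-gamma and a main product of memory CD8 T cells, averaged 3.39 ± 2.87 CPM (SD, n = 3) in Naive and 97.0 ± 57.1 CPM (SD, n = 4) in Sensitized. It rose by 4.84 on the log2 scale (SE 1.10, adjusted p = 0.0826, edgeR). *Ifng* stood at 88.1 ± 58.5 CPM in N+P C5 (SD, n = 3), and its log2 fold change of 4.70 against Naive missed the threshold (SE 1.11, adjusted p = 0.182).

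None of 5 tested interferon receptor genes was called in Sensitized or N+P C5 against Naive. In S+P C5 against Sensitized 1 of 5 was called (0.0712% of all genes), *Ifngr1*, the ligand-binding chain of the interferon-gamma receptor, which was lower. It averaged 590 ± 193 CPM (SD, n = 4) in Sensitized and 81.6 ± 62.0 CPM (SD, n = 6) in S+P C5, with a log2 fold change of -2.85. *Ifngr1* was also called, lower, in S+P C5 against S+P C4 (521 ± 253 CPM, SD, n = 6), with -2.67 (0.0305% of all genes called). In S+P C7 *Ifngr1* averaged 277 ± 166 CPM (SD, n = 5), and no receptor gene was called against Sensitized. None of the 10 receptor kinases, STATs and suppressors was called in Sensitized or N+P C5 against Naive or in S+P C5 against Sensitized. The same held for the 9 tested nucleic acid sensing genes. *Stat4*, which carries interleukin-12 and type I interferon signals, had an unadjusted p under 0.05 in Sensitized against Naive (log2 fold change 0.73, SE 0.36, adjusted p = 0.627), and *Irf8*, a transcription factor of lymphoid and myeloid cells, in S+P C5 against Sensitized (log2 fold change 2.63, SE 1.23, adjusted p = 0.35). *Ifnk* was at or under 3 counts in all S+P C5 samples, at least 2.62-fold below the Sensitized mean (unadjusted p = 0.0287 in edgeR's test), but that mean rests on 1 sample with 1.01 CPM, since 3 of the 4 Sensitized samples were also at or under 3 counts.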

How the data were processed

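RNA was measured in 56 SmartSeq2 libraries of 200 sorted live cells. The deposited count table holds whole-number read counts per gene that the authors made with cutadapt 3.4, STAR 2.6.1b and featureCounts 2.0.1 against GRCm39, per the labels and the submitters' processing notes, and the strand setting of the counting is not given in the sources used here. Members and gene lists were chosen with earlier results of these data known. Identical and near-identical libraries were treated as described above, and technical libraries were summed per mouse and gate. Genes passing filterByExpr (minimum count 10) were fitted over all 7 groups with edgeR 4.0.16 (TMM, robust quasi-likelihood) in R 4.3.3, with calls made where adjusted p was under 0.1 and the log2 fold change was beyond 0.9. The script was tested on simulated data. A level was taken as at the floor at 3 counts or fewer in every sample of a group. Full values are given for members called, for up to 3 members per direction and comparison with the smallest unadjusted p under 0.05, and for the 5 with the highest mean CPM, and the rest by counts and ranges unless stated.

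Gates of the same mouse share its number. Deviations from group means of same-mouse samples correlated at a mean of 0.0473 (N+P C5 and C1), 0.109 (S+P C5 and C4), 0.174 (S+P C7 and C4) and 0.116 (S+P C7 and C5), and the block was fitted because the gates came from the same animals. Alternatives were DESeq2 1.42.0, other filters and thresholds, separate technical libraries, fits of the compared groups alone, the mouse as a block, other pseudocounts (0.1 and 5 in place of 1) and leaving out samples.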

Additional observations from a re-analysis of the deposited data

Results flagged for a closer look

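Of 52 groups of 4 to 10 samples tested, 17 held a sample far from the others by Dixon's criterion. Chance gives about 1 in 20 where values are normally distributed. CPM values need not be, and some genes were at 0 in nearly all samples of a group. The 17 therefore cannot be set against that rate. The tests share samples and some concern genes near 0. Of the samples with few genes detected, S+P C7 mouse 3 had a member score of 3.36 (others 5.41 to 5.95), 99.5 CPM of *Ifi47* (others 308 to 378) and 108 CPM of *Rsad2* (others 0 to 28.4). S+P C4 mouse 2 had 166 CPM of *Ifi44* (others 0 to 2.72) and 11.4 CPM of *Ifi209* (others 267 to 415), and S+P C4 mouse 3 had 716 CPM of *Ifi203* (others 228 to 363).

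In S+P C5, mouse 2 had 1530.3 CPM of *Ifi27l2a* (others 613 to 802) and 616 CPM of *Ifi203* (others 275 to 359). S+P C5 mouse 3 had 76.0 CPM of *Ly6a* (others 370.3 to 491) and 116 CPM of *Samhd1* (others 251 to 323), and S+P C5 mouse 6 had 454 CPM of *Ifi209* (others 309 to 342).

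The remaining values were of genes at or near 0 in the rest of the group. *Oas2* reached 6.89 CPM in S+P C4 mouse 6 and 1.42 CPM in S+P C7 mouse 5, *Rsad2* 8.74 CPM in S+P C4 mouse 5, *Ifi44* 0.0651 CPM in S+P C7 mouse 4, and *Ifi204* 6.83 CPM in Sensitized mouse 3 and 11.1 CPM in S+P C4 mouse 4.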

How the results depend on the processing

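No fold change of the 9 genes recomputed (*Ly6a*, *Ifi47*, *Oas2*, *Rsad2*, *Ifi27l2a*, *Ifi208*, *Usp18*, *Ifi44*, *Ifi204*, in the comparisons where their unadjusted p was under 0.05) turned under an alternative, whereas some members' medians near 0 did. Against Naive, DESeq2 called 2 members for Sensitized, 1 for N+P C1 and 1 for N+P C5, and it called 4 for S+P C7 and 2 for S+P C5 against Sensitized, 1 for N+P C5 against N+P C1, 4 for S+P C7 and 3 for S+P C5 against S+P C4, 1 for S+P C7 against S+P C5 and 1 for S+P C5 against N+P C5. With technical libraries kept separate, which counts 1 mouse more than once, the same comparisons gave 1, 0, 1, 4, 2, 1, 4, 2, 1 and 1, and the interaction gave 1. Of all 16583 genes, that setting called 176, 9, 106, 867, 1164, 28, 984, 811, 645 and 61, and 172 for the interaction. DESeq2 called between 606 and 1102 of all 33255 genes in every comparison. Without the samples with under 9000 genes detected, 1 member was called in Sensitized against Naive, 1 in N+P C5 against Naive, and against Sensitized 1 for S+P C7 and 3 for S+P C5. All genes called there came to 153, 120, 69 and 199 of 19553. A fit of only the groups compared gave 1 in Sensitized against Naive, 3 in S+P C5 against Sensitized and 0 in S+P C5 against S+P C4. All genes called in these fits came to 98 of 13333, 142 of 13427 and 2 of 11822. With no filter on low counts 0 were called in S+P C5 against Sensitized and 0 against S+P C4, with a mean of at least 10 CPM 2 were called in S+P C5 against Sensitized, and at an adjusted p under 0.05 0 were called in S+P C5 against S+P C4. All genes called came to 7 and 2 of 40335 without the filter and 26 of 8297 with a mean of at least 10 CPM. With the mouse as a replicate block in a fit of the groups compared, 0 were called in S+P C5 against S+P C4, as in that fit without the block. The members' median with the block was 0.54 (all genes 0.64). No member was called with the block in the other comparisons of gates of the same mice. Leaving out 1 sample gave 0 to 1 calls in S+P C5 against S+P C4, and members' medians from -0.28 to 0.24 in S+P C7 against S+P C4, the highest without S+P C7 mouse 3.

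The score of S+P C4 minus Sensitized was -1.12, and it was -1.58 with a pseudocount of 0.1, -0.76 with 5, -1.60 as a median over members and between -1.27 and -0.70 with 1 sample left out, the last without S+P C4 mouse 3. That of S+P C7 minus Sensitized lay between -0.996 and -0.347, the last without S+P C7 mouse 3. The causes were not tested. Of results for single genes, 308 kept their side of the threshold, 37 came to pass it and 5 ceased to, apart from leaving out samples, where 285 kept it and 7 ceased to pass it.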
